A study of Homo sapiens with 12 samples.

Results

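Described here are 46 genes of DNA replication, chosen by gene name from the 58735 genes of the count table and sorted into 14 complexes or roles, from the origin recognition complex to the chromatin assembly factor. They were measured by RNA sequencing of A549, a human lung adenocarcinoma cell line, in 12 libraries. The cells carried a stable hairpin RNA against TRIM22, a tripartite-motif protein, or a control hairpin. The 4 groups of 3 libraries each are shControl sham (control hairpin, sham irradiation), shControl irradiated (control hairpin, harvested 3 days after ionizing radiation), shTRIM22 sham (TRIM22 hairpin, sham irradiation) and shTRIM22 irradiated (TRIM22 hairpin, 3 days after ionizing radiation). The control cells are labelled WT but carry a hairpin as well. The sources used here give neither the radiation dose, the harvest time of the sham cells, the hairpin sequences nor the number of clones. The libraries are labelled biological replicates without saying that they came from separate cultures, so a p-value here speaks only of the spread among the libraries themselves.

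DNA replication starts where the origin recognition complex, with CDC6 and CDT1, loads the MCM helicase onto DNA as an inactive ring during G1 phase. At the start of S phase the kinase CDC7 with its activator DBF4, together with cyclin-dependent kinases, turns the ring into a working helicase by adding CDC45 and the GINS complex. Polymerase alpha-primase then lays primers, polymerases delta and epsilon extend them on the sliding clamp PCNA, FEN1 and LIG1 finish the lagging strand, and the chromatin assembly factor deposits histones behind the fork. Many of these genes are transcribed under the E2F factors around the entry into S phase, and cells that stop dividing lower them.

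The libraries held 14468386 to 17872154 counts. The members together took 0.155% to 0.158% of the counts in shControl sham, 0.131% to 0.139% in shControl irradiated, 0.191% to 0.248% in shTRIM22 sham and 0.134% to 0.139% in shTRIM22 irradiated. TRIM22 itself was measured at 2.28 ± 0.538, 17.6 ± 0.969, 0.308 ± 0.0169 and 2.00 ± 0.579 CPM (counts scaled to a common library size; mean ± SD, n = 3 per group) in the same order, so it was lower in the shTRIM22 cells under both treatments. Replicate 3 of shTRIM22 sham stood apart: its mitochondrial genes took 2.67% of the counts, where its fellow replicates had 9.12% and 11.4% and the other 9 libraries 10.8% to 14.4%. It was the highest of all 12 libraries for 30 of the 46 members. With this library in the fit the common biological coefficient of variation was 9.70%, and leaving it out brought 5.46%. Counts of called members among all 46 are therefore given both ways. A printed value that rests on the shTRIM22 sham group is followed by its value without the library at least where it moved by more than 1.5 times or crossed the threshold. The other comparisons hardly changed in value, and the members that crossed the threshold there without the library are named below. Of 8 markers of A549 cells EPCAM was low, at 3.11 to 11.8 CPM, while KRT8 stood at 2452 to 4627 CPM. Under both treatments CDH1, AKR1B10, AKR1C1 and ALDH1A1 had lower means with the TRIM22 hairpin, and KRT8, KRT18, EPCAM and NQO1 higher ones. CDH1 averaged 215 (sham) and 287 CPM (irradiated) with the control hairpin, against 44.4 and 72.8 CPM with the TRIM22 hairpin. Before irradiation AKR1B10 averaged 571 against 199 CPM, and AKR1C1 630 against 303 CPM. These marker differences were not tested. Markers of other cells summed to 5.85 to 11.3 CPM for fibroblasts, 3.84 to 12.0 CPM for endothelium and 10.52 to 32.9 CPM for blood, the last nearly all CD14, and their part in the results was not tested.

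All 46 members passed the filter on low counts. In shControl cells 3 days after irradiation, 26 members were lower and 1, PCNA, was higher, at an adjusted p below 0.05. Of the 17094 genes tested, 7.53% were lower and 10.6% higher in that comparison. In shTRIM22 cells 35 members were lower after irradiation and 0 higher, against 14.0% lower and 13.5% higher of all genes. Without irradiation, 32 members were higher in shTRIM22 than in shControl cells and 2, ORC3 and POLD3, were lower, where 25.4% of all genes were higher and 22.1% lower. After irradiation the same comparison of the hairpins gave 15 members higher and 2, PCNA and CDT1, lower, against 17.6% and 18.0% of all genes. The median log2 fold changes of the members in these 4 comparisons were -0.51, -0.73, 0.49 and 0.24, and those of all genes lay between -0.00 and 0.02. In bulk RNA, fewer cells that express a gene and less of its RNA per cell cannot be told apart.

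The 3 values of one group lay wholly apart from the 3 of the other for 35 members after irradiation in shControl cells, 39 after irradiation in shTRIM22 cells, 37 between the unirradiated hairpin groups and 29 between the irradiated ones. Of all genes tested the groups lay apart in this way for 41.4%, 39.5%, 53.0% and 53.7%. Without shTRIM22 sham replicate 3 the counts that use its group were 43 and 40 members, against 53.5% and 65.8% of all genes. The shTRIM22 sham group had the highest mean of the 4 groups for 41 of the 46 members, and the shControl irradiated group the lowest for 35. The order of the groups was not counted over all genes. Without shTRIM22 sham replicate 3, which also lowers the estimated spread, the counts of higher and lower members became 1 and 35 (irradiation in shControl), 0 and 37 (irradiation in shTRIM22), 34 and 1 (hairpins without irradiation) and 25 and 3 (hairpins after irradiation). The shares of all genes higher and lower without that library were 16.8% and 13.3%, 15.3% and 15.5%, 26.4% and 23.3%, and 22.8% and 22.6%. In shControl cells the members that passed in addition were ORC1, ORC3, GMNN, MCM3, MCM4, GINS1, POLD1, POLD2 and FEN1, with changes that are the same to within 0.01. After irradiation MCM4, POLA1, POLA2, POLD2, POLE, POLE2, RFC2, RFC4, FEN1 and RPA3 were then also higher in shTRIM22 cells, and LIG1 lower, again with nearly the same changes. Leaving out shControl irradiated replicate 1 instead brought the members called between the irradiated hairpins from 17 to 11, against 13.8% of all genes higher and 14.9% lower. Under both irradiation comparisons, which share no library, 22 members were lower in each, 13 passed the threshold in shTRIM22 cells and not in shControl cells, 4 the other way round, and 6 in neither. Without shTRIM22 sham replicate 3 these counts were 31, 6, 4 and 4. Shares of all genes in these joint classes are not given, so the counts describe the members alone. Passing in one population and not in the other does not show a difference, and the test of the difference is given further on. The 6 that passed in neither were ORC3, ORC4, ORC5, POLA2, PRIM2 and RFC1, of which ORC3 (in shControl cells) and RFC1 (in shTRIM22 cells) passed without replicate 3.

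**Figure D1:**
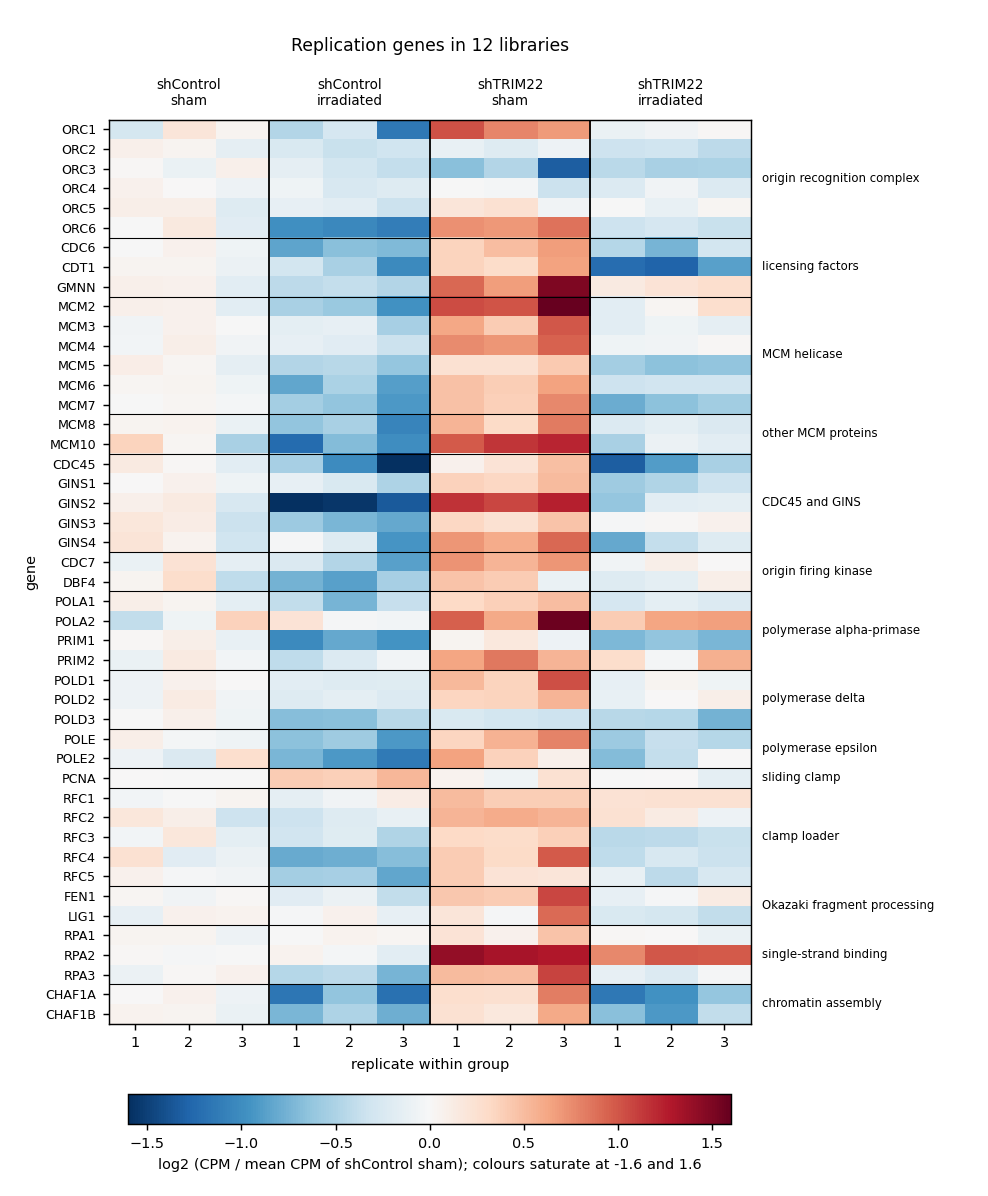
Level of each of the 46 genes (rows, by complex) in each of the 12 libraries (columns, by group and replicate), as log2 of CPM over the gene's mean CPM in shControl sham; red is above that mean and blue below it. The shTRIM22 sham columns are the reddest, the shControl irradiated columns the bluest, and the PCNA row runs the other way, with its highest values in shControl irradiated.

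The promoters of the members share letters that the choice of genes did not use. RefSeq's promoter table (GRCh38.p14, 250 bases before to 50 after each gene's start) held 50 windows of 40 members. The letters TTTCCCGC, TTTGGCGC, TTTGCCGC or TTTCGCGC, known as the core of E2F sites, were looked for on both strands. They stood in 20 of the 50 windows (40.0%), belonging to 20 members, and in 3.31% of all 35116 windows of the same length. The letters CCAAT, which NF-Y is known to bind, were in 27 member windows (54.0%) and in 34.6% of all windows. The letters TTTGAA, the cell cycle genes homology region of late cell cycle genes, were in 1 member window (2.00%) and in 15.2% of all. A match is a description of the letters and not a site of binding. For 12 members, from origin recognition to ligation, 1 site each is shown because it lets the shared letters be compared. Each is 30 bases read 5′ to 3′ along the gene's own strand, with the matching letters in capitals. Where 2 matches overlap on opposite strands both are in capitals. The other sites of MCM3 (at -174) and MCM7 (at -187) are not listed, and that of MCM6 is shown with its upstream stretch.
ORC3: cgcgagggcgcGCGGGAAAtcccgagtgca
CDC6: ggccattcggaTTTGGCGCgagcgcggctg
CDT1: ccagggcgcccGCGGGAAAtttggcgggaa
MCM2: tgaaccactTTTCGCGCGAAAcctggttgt
MCM3: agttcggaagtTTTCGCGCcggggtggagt
MCM6: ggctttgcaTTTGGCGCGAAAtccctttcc
MCM7: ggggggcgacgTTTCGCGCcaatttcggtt
GINS2: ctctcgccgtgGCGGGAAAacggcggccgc
POLA1: gtcatcacaggGCGCCAAAcgcgcgtccgc
POLE: tgggtgggagcGCGCCAAAtttctcccctg
PCNA: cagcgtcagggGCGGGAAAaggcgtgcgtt
LIG1: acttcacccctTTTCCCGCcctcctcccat
The match of CDT1 began 35 bases before the start given by the promoter table (-35), that of GINS2 at -31, that of PCNA at -59 and that of ORC3 at -12. For CDT1, GINS2, PCNA and ORC3 alike that start lies inside the gene span of the count table. ORC3 and PCNA, which moved against most other members in one comparison or another, thus hold the same core as CDT1 and GINS2.

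MCM6 holds a pair of identical 12-letter cores, at -152 and -90, and the 250 bases before its start are shown with them in capitals, chr2:135876444-135876693 on the minus strand. The letters attgg, which are CCAAT on the other strand, begin at -100 between the cores and at -58 after the second.
MCM6: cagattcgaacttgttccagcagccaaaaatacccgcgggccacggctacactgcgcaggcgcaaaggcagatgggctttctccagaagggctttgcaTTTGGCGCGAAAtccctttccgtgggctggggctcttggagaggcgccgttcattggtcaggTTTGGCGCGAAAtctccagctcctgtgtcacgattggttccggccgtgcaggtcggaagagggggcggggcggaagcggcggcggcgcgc
The upstream stretch of PCNA that lies outside annotated exons, chr20:5126627-5126785 on the minus strand, is shown beside it because PCNA was the one member that rose with irradiation.
PCNA: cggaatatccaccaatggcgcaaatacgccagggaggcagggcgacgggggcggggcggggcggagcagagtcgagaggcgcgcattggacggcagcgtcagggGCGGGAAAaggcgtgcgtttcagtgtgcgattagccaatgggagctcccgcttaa
The 20 members with an E2F core and the 20 matched members without one were counted side by side. Without a core means that none of the exact letters searched was found, and near variants were not searched. MCM4, MCM5, GINS4, POLD3, RPA2 and RPA3 had no window and are outside this split. After irradiation in shControl cells 13 with a core were lower and 1 higher, and 10 without were lower and 0 higher. In shTRIM22 cells 16 with and 14 without a core were lower, and 0 of either were higher. Between the unirradiated hairpin groups 15 with a core were higher and 1 lower, and 12 without were higher and 0 lower. After irradiation 7 with a core were higher and 2 lower, and 7 without were higher and 0 lower. Of all genes, 7.53% were lower and 10.6% higher after irradiation in shControl cells, and 14.0% and 13.5% in shTRIM22 cells. Between the hairpins 25.4% were higher and 22.1% lower without irradiation, and 17.6% and 18.0% after it. This split was counted with all libraries only.

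In the origin recognition complex, which marks origins and recruits CDC6, ORC1 and ORC6 were higher with the TRIM22 hairpin under both treatments and ORC4 and ORC5 passed no threshold. ORC6, the smallest and most loosely held subunit, was measured at 11.6, 12.9 and 10.2 CPM in shControl sham and at 5.87, 5.66 and 5.38 CPM in shControl irradiated. It stood at 19.2, 18.8 and 21.2 CPM in shTRIM22 sham and at 9.16, 9.58 and 9.01 CPM in shTRIM22 irradiated. No value of one group overlapped another group, and the unirradiated shTRIM22 cells were the highest. ORC6 fell by 1.04 ± 0.12 in shControl cells (log2 fold change ± standard error, as are all values with ± below unless CPM is named; adjusted p = 2.15e-05) and by 1.09 ± 0.11 in shTRIM22 cells (adjusted p = 5.64e-06). It was higher in shTRIM22 cells by 0.77 ± 0.11 without irradiation (0.72 without replicate 3) and by 0.72 ± 0.13 after it. The irradiation effects in the 2 populations differed by -0.05 ± 0.17, adjusted p = 0.901 (-0.00 without replicate 3).

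ORC1, the subunit whose protein is known to cycle in human cells, was measured at 4.84, 6.77 and 6.08 CPM in shControl sham, 4.25, 4.88 and 2.66 in shControl irradiated, 11.9, 10.1 and 9.49 in shTRIM22 sham and 5.46, 5.66 and 5.98 in shTRIM22 irradiated. The irradiated and unirradiated shControl values overlapped, with a change of -0.59 ± 0.20 that missed the threshold (adjusted p = 0.0509). ORC1 fell by 0.88 ± 0.18 in irradiated shTRIM22 cells (adjusted p = 0.00211), and was 0.83 ± 0.18 higher in shTRIM22 cells without irradiation (0.90 without replicate 3). After irradiation it was 0.55 ± 0.20 higher, a call with an adjusted p of 0.0459 that held in 11 of 19 alternative settings. It was lost under DESeq2 and without shControl sham replicate 2 or 3, shControl irradiated replicate 1 or 3, or any of the shTRIM22 irradiated libraries, with values of 0.32 (without shControl irradiated replicate 3) to 0.60.

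ORC3, a core subunit, was lower with the TRIM22 hairpin where ORC1 and ORC6 were higher. Its values were 21.9, 20.1 and 22.8 CPM in shControl sham, 19.6, 17.6 and 16.6 in shControl irradiated, 13.6, 15.6 and 8.67 in shTRIM22 sham and 16.1, 15.1 and 15.2 in shTRIM22 irradiated. All 6 shTRIM22 libraries lay below all 6 shControl libraries, and the lowest was shTRIM22 sham replicate 3. ORC3 was lower in unirradiated shTRIM22 cells by -0.78 ± 0.15 (adjusted p = 0.000555), and by -0.57 without that library. After irradiation the difference was -0.21 ± 0.15, which missed the threshold. ORC2 fell by 0.30 ± 0.08 in irradiated shControl cells (adjusted p = 0.0199), and its change in shTRIM22 cells was -0.22 ± 0.08 (adjusted p = 0.0645). The call in shControl cells was lost without shControl sham replicate 1 or 2 or shControl irradiated replicate 2 or 3 (-0.26 to -0.29). ORC4 and ORC5, the remaining subunits of the core, passed in no comparison, with changes between -0.21 and 0.18 (-0.25 and 0.22 without replicate 3). Their group means ran from 26.0 to 29.3 CPM for ORC4 and from 18.5 to 23.5 CPM for ORC5.

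**Figure D2:**
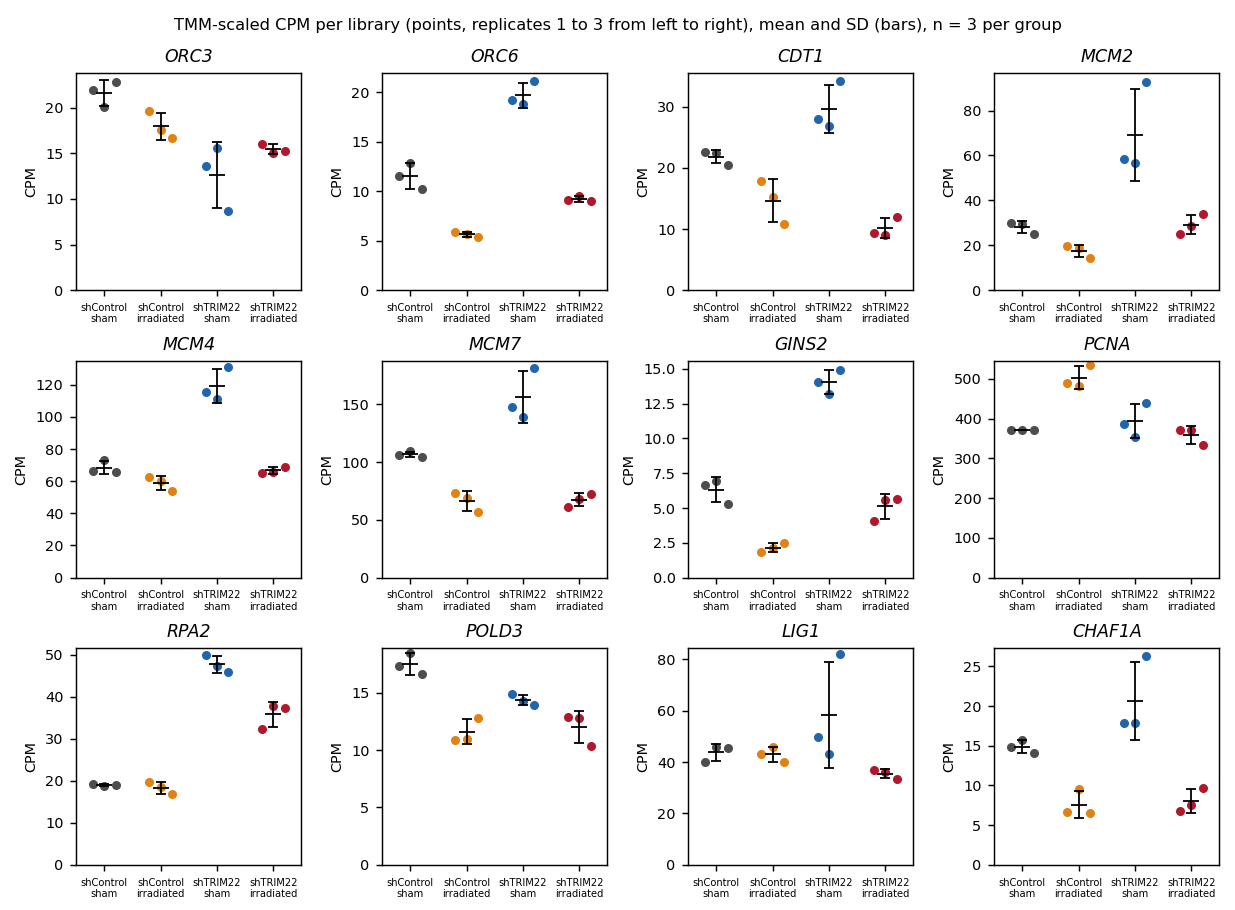
CPM of 12 members in each library (points, replicates 1 to 3 from left to right), with the mean and SD of each group of 3 (bars); the vertical axes start at 0. CDT1 is lowest in shTRIM22 irradiated, PCNA is highest in shControl irradiated, RPA2 is high in both shTRIM22 groups, and ORC3 is low in both.

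Of the licensing factors, CDC6 and CDT1 load the helicase, and geminin (GMNN) binds CDT1 and blocks it outside G1 phase. CDT1 was measured at 22.5, 22.4 and 20.5 CPM in shControl sham, 17.8, 15.2 and 10.8 in shControl irradiated, 27.9, 26.9 and 34.2 in shTRIM22 sham and 9.36, 8.98 and 12.0 in shTRIM22 irradiated. The shTRIM22 cells thus held both the highest and the lowest CDT1 level, and the irradiated groups overlapped by one library. CDT1 fell by 0.58 ± 0.16 with irradiation in shControl cells (adjusted p = 0.0157) and by 1.55 ± 0.16 in shTRIM22 cells (adjusted p = 6.02e-06; -1.44 without replicate 3). It was 0.44 ± 0.15 higher in shTRIM22 cells without irradiation (adjusted p = 0.0224; 0.33 without replicate 3). After irradiation it was lower there by -0.53 ± 0.17 (adjusted p = 0.0206), a call that held in 15 of 19 alternatives and was lost without replicate 1 or 2 of either irradiated group (-0.37 to -0.50). The call in shControl cells was lost without shControl sham replicate 1 or 2 (both -0.56) or shControl irradiated replicate 3 (-0.40), and that between the unirradiated groups without shControl sham replicate 3 (0.40). CDT1 lies on chromosome 16, 88803213 to 88809258, plus strand (GRCh38), and shares exon bases with 0 other genes.

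CDC6, a partner of ORC in loading, was at 16.2, 17.1 and 15.6 CPM in shControl sham and 9.06, 10.2 and 9.99 in shControl irradiated. Its values were 20.9, 22.9 and 25.8 CPM in shTRIM22 sham and 11.8, 9.70 and 13.3 in shTRIM22 irradiated. Within each population the irradiated values all lay below the unirradiated ones, and the changes were -0.74 ± 0.13 (adjusted p = 0.000614) and -1.002 ± 0.12 (adjusted p = 2.18e-05). CDC6 was 0.51 ± 0.12 higher in unirradiated shTRIM22 cells (0.43 without replicate 3), and the irradiated groups overlapped, with a difference of 0.25 ± 0.13. GMNN was at 11.3, 11.3 and 9.57 CPM in shControl sham and 20.3, 17.0 and 30.1 CPM in shTRIM22 sham, the highest value being that of replicate 3. It was higher in shTRIM22 cells by 1.07 ± 0.16 without irradiation (adjusted p = 5.28e-05; 0.80 without replicate 3) and by 0.64 ± 0.18 after it (adjusted p = 0.00899). After irradiation GMNN fell by 0.85 ± 0.16 in shTRIM22 cells (-0.59 without replicate 3), and its change in shControl cells, -0.42 ± 0.18, had an adjusted p of 0.115.

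The 6 genes of the MCM helicase, MCM2 to MCM7, moved together in the shTRIM22 cells. All 6 were lower after irradiation in shTRIM22 cells, 4 of 6 in shControl cells, all 6 were higher in shTRIM22 cells without irradiation and 2 of 6, MCM2 and MCM6, after it. Per kilobase of merged annotated exons, MCM7 was highest in shControl sham at 24.3 ± 0.519 CPM per kb. MCM3 at 15.3 ± 0.669 and MCM4 at 9.80 ± 0.596 came next. MCM6 followed at 8.31 ± 0.361, and MCM2 (5.75 ± 0.553) and MCM5 (5.13 ± 0.448) did not differ beyond their spread. The merged exons can be longer than the transcript that the cells express, so levels of different genes compare only roughly. In shTRIM22 sham MCM2 stood at 14.1 ± 4.16 CPM per kb, above MCM6 at 11.8 ± 1.06, with ranges of SD that overlap. The protein subunits are known to occur once each in the ring, and these RNA levels, which depend on the annotated length, spanned 5.13 to 24.3 CPM per kb.

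MCM7, whose transcript hosts a microRNA cluster, was at 106, 109 and 105 CPM in shControl sham, 73.4, 68.9 and 56.4 in shControl irradiated, 148, 139 and 182 in shTRIM22 sham and 61.5, 67.7 and 72.7 in shTRIM22 irradiated. The irradiated groups lay over each other and the unirradiated ones lay apart, with shTRIM22 above. MCM7 fell by 0.69 ± 0.11 in shControl cells (adjusted p = 0.000282) and by 1.21 ± 0.10 in shTRIM22 cells (adjusted p = 1.65e-06; -1.09 without replicate 3). It was 0.55 ± 0.10 higher in shTRIM22 cells without irradiation (0.43 without replicate 3), and differed by 0.02 ± 0.11 after it. MCM7 shares 392 exon bases with AP4M1 on the opposite strand, and strandedness of the counting is not given in the sources used here.

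MCM4 was at 66.2, 73.2 and 65.8 CPM in shControl sham, 62.5, 60.3 and 53.9 in shControl irradiated, 115, 111 and 131 in shTRIM22 sham and 65.4, 65.8 and 69.1 in shTRIM22 irradiated. The shTRIM22 sham libraries stood far from the rest, at 111 CPM or more, while the other 9 lay between 53.9 and 73.2 CPM. MCM4 was 0.80 ± 0.08 higher in unirradiated shTRIM22 cells (adjusted p = 3.2e-07; 0.73 without replicate 3) and fell by 0.84 ± 0.08 on irradiation there (adjusted p = 2.01e-06; -0.76 without replicate 3). In shControl cells its irradiation change was -0.22 ± 0.08 (adjusted p = 0.0695), and after irradiation the hairpins differed by 0.18 ± 0.08 (adjusted p = 0.0851).

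MCM2 showed the largest rise of the ring between the unirradiated groups, from 29.9, 29.6 and 25.0 CPM in shControl to 58.3, 56.5 and 92.7 CPM in shTRIM22, the last from replicate 3. The change was 1.30 ± 0.18 (adjusted p = 7.6e-05), and 1.03 without that library. After irradiation MCM2 was at 19.6, 18.6 and 14.4 CPM in shControl and at 25.2, 28.7 and 33.8 CPM in shTRIM22 cells, a difference of 0.74 ± 0.20 (adjusted p = 0.00986). All shTRIM22 values lay above the shControl values of the same treatment. MCM2 shares 1158 exon bases with TPRA1 and AC023593.1 on the opposite strand, and the strandedness of the counting is not given. The more abundant of these neighbours had a mean count of 1047 per library, against 598 for MCM2, so its counts are uncertain. MCM2 fell by 0.69 ± 0.20 in shControl cells (adjusted p = 0.0276), a call lost without shControl sham replicate 1 or 2 or shControl irradiated replicate 2 or 3 (-0.56 to -0.73), and by 1.24 ± 0.18 in shTRIM22 cells (-0.97 without replicate 3). MCM6 was at 35.0, 35.2 and 32.5 CPM in shControl sham, 19.2, 24.1 and 18.6 in shControl irradiated, 47.5, 45.05 and 53.5 in shTRIM22 sham and 27.2, 27.6 and 27.6 in shTRIM22 irradiated. Its groups did not overlap, and its irradiation changes were close in size, -0.73 ± 0.10 in shControl and -0.83 ± 0.10 in shTRIM22 cells. MCM6 was higher in shTRIM22 cells by 0.51 ± 0.10 without irradiation (0.44 without replicate 3) and by 0.41 ± 0.10 after it.

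MCM5 fell by 0.51 ± 0.09 in shControl cells (adjusted p = 0.000788) and by 0.91 ± 0.09 in shTRIM22 cells (adjusted p = 3.35e-06), with group means of 37.7 and 26.5 CPM, and 46.5 and 24.7 CPM. It had the smallest rise of the ring in unirradiated shTRIM22 cells, 0.30 ± 0.09 (adjusted p = 0.00875; 0.25 without replicate 3), lost without shControl sham replicate 3 (0.23). MCM3 fell by 0.83 ± 0.13 in shTRIM22 cells (-0.65 without replicate 3), from 86.2, 74.4 and 111 CPM to 49.5, 53.2 and 50.6 CPM. In shControl cells the change of MCM3 was -0.26 ± 0.13 (adjusted p = 0.193), which passed the threshold without shTRIM22 sham replicate 3, as did that of MCM4. After irradiation MCM3 and MCM5 differed between the hairpins by 0.13 ± 0.13 and -0.10 ± 0.09, neither past the threshold.

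MCM10, which helps the assembled helicase to start, and MCM8, which with MCM9 acts in recombination at broken forks, were lower after irradiation and higher in shTRIM22 cells in all 4 comparisons. MCM10 was low in level, at 9.12, 7.33 and 5.01 CPM in shControl sham, 3.04, 4.43 and 3.61 in shControl irradiated, 14.1, 15.8 and 16.7 in shTRIM22 sham and 5.00, 6.69 and 6.37 in shTRIM22 irradiated. The shControl sham libraries spread widely, and the shTRIM22 sham libraries lay above all others. MCM10 changed by -0.94 ± 0.21 (adjusted p = 0.00467), -1.36 ± 0.19 (7.02e-05), 1.12 ± 0.18 (9.72e-05; 1.07 without replicate 3) and 0.70 ± 0.21 (0.0169) in the order irradiation in shControl, irradiation in shTRIM22, hairpins without and hairpins after irradiation. The last was lost without shControl irradiated replicate 1 or 3 or shTRIM22 irradiated replicate 2 (0.59 to 0.68). MCM8 changed in the same order by -0.72 ± 0.14, -0.78 ± 0.13, 0.57 ± 0.13 (0.43 without replicate 3) and 0.51 ± 0.14, with group means of 39.8, 24.2, 59.2 and 34.5 CPM in the order of the groups given at the start.

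CDC45 and the 4 GINS genes encode what turns the MCM ring into the active helicase. GINS2 had the largest fall of all members in shControl cells. Its values were 6.67, 6.96 and 5.29 CPM in shControl sham, 1.84, 2.15 and 2.48 in shControl irradiated, 14.1, 13.2 and 14.9 in shTRIM22 sham and 4.09, 5.602 and 5.66 in shTRIM22 irradiated. The shControl irradiated libraries were the lowest, the shTRIM22 sham libraries the highest, and shTRIM22 irradiated overlapped shControl sham. GINS2 fell by 1.53 ± 0.19 in shControl (adjusted p = 2.7e-05) and by 1.46 ± 0.16 in shTRIM22 cells (adjusted p = 7.51e-06). It was higher in shTRIM22 cells by 1.16 ± 0.15 without irradiation (adjusted p = 1.07e-05; 1.12 without replicate 3) and by 1.24 ± 0.19 after it (adjusted p = 8.92e-05). GINS2 shares 7 exon bases with GSE1 on the opposite strand.

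The other GINS genes moved less alike. GINS1 was at 20.3, 21.2 and 19.4 CPM in shControl sham, 18.5, 17.2 and 14.4 in shControl irradiated, 26.3, 25.5 and 28.8 in shTRIM22 sham and 13.6, 14.5 and 16.1 in shTRIM22 irradiated. Its fall was 0.87 ± 0.11 in shTRIM22 cells (adjusted p = 2.63e-05), and the change in shControl cells, -0.28 ± 0.11, had an adjusted p of 0.0835. GINS4 fell by 1.19 ± 0.21 in shTRIM22 cells (adjusted p = 0.000613), and its change in shControl cells was -0.34 ± 0.22 (adjusted p = 0.318). Both were higher in unirradiated shTRIM22 cells, by 0.41 ± 0.10 and 0.75 ± 0.20 (0.36 and 0.66 without replicate 3). GINS3 fell by 0.71 ± 0.17 in shControl cells (adjusted p = 0.00746), with a change of -0.33 ± 0.16 in shTRIM22 cells, and was 0.73 ± 0.17 higher in shTRIM22 cells after irradiation (adjusted p = 0.00285). CDC45 fell by 1.06 ± 0.26 in shControl (adjusted p = 0.00975) and by 1.14 ± 0.25 in shTRIM22 cells (adjusted p = 0.00342), with means of 6.15, 2.99, 7.42 and 3.36 CPM in the 4 groups. Its call in shControl cells was lost without shControl irradiated replicate 3, with a change of -0.75. Between the hairpins CDC45 differed by 0.27 ± 0.24 without (0.15 without replicate 3) and 0.19 ± 0.28 after irradiation, and the groups overlapped.

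The firing kinase is CDC7 with DBF4, its activating subunit. CDC7 was at 10.2, 13.0 and 10.02 CPM in shControl sham, 9.41, 8.01 and 6.09 in shControl irradiated, 18.2, 16.2 and 18.05 in shTRIM22 sham and 10.7, 11.9 and 11.1 in shTRIM22 irradiated. The shTRIM22 irradiated values lay among those of shControl sham. CDC7 fell by 0.51 ± 0.15 in shControl (adjusted p = 0.0283) and by 0.64 ± 0.14 in shTRIM22 cells (adjusted p = 0.00329), and was higher in shTRIM22 cells by 0.66 ± 0.14 without (0.64 without replicate 3) and 0.53 ± 0.15 after irradiation. Its call in shControl cells was lost without shControl sham replicate 2 (-0.38) or shControl irradiated replicate 2 or 3 (-0.52 and -0.35), and that after irradiation without shControl irradiated replicate 3 (0.37) or shTRIM22 irradiated replicate 2 (0.48). DBF4 fell by 0.71 ± 0.18 in shControl cells (adjusted p = 0.0129) and was 0.63 ± 0.19 higher in shTRIM22 cells after irradiation (adjusted p = 0.0144). Its change in shTRIM22 cells, -0.36 ± 0.17, and its difference between the unirradiated groups, 0.28 ± 0.17, missed the threshold and passed it without replicate 3, at -0.52 and 0.44. The first DBF4 call was lost without shControl sham replicate 2 (-0.54) or shControl irradiated replicate 1 or 2 (-0.68 and -0.63), and the second without shControl irradiated replicate 1 or 2 or shTRIM22 irradiated replicate 3 (0.55 to 0.60).

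**Figure D3:**
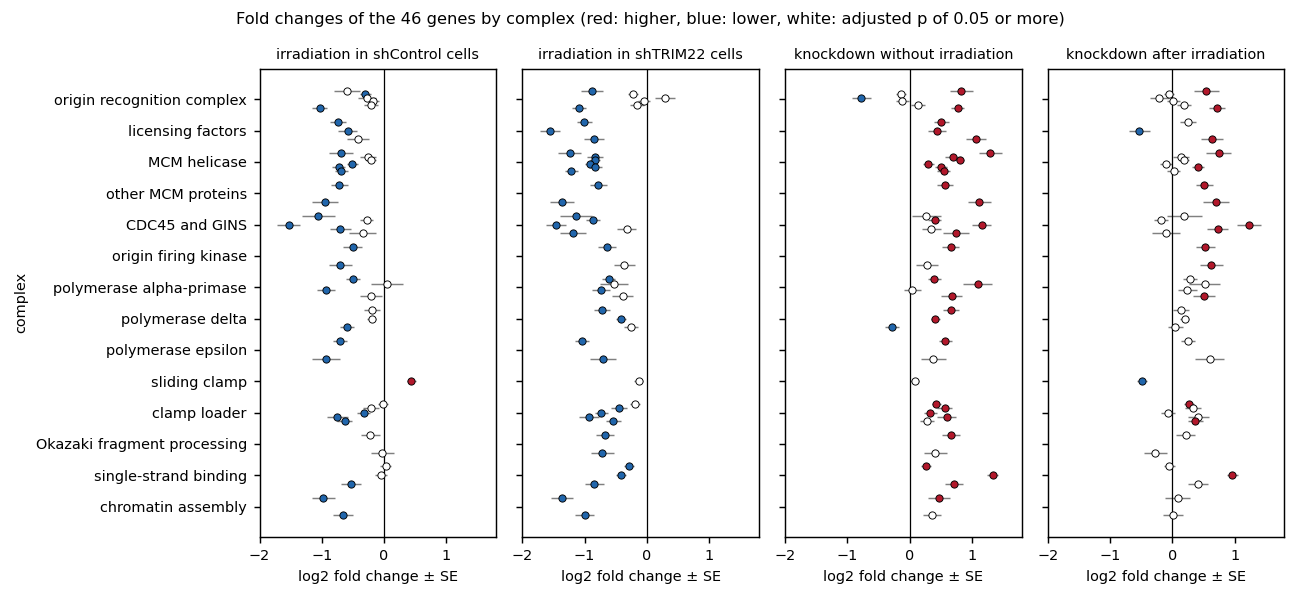
Log2 fold change ± standard error of each of the 46 genes (points, by complex) in the 4 comparisons, red for higher and blue for lower at an adjusted p below 0.05, white for neither. Nearly all points lie left of 0 in the irradiation panels, with PCNA on the right in shControl cells, and right of 0 in the panel of the unirradiated hairpin groups, with ORC3 and POLD3 on the left.

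In polymerase alpha-primase, which makes the RNA-DNA primer, the subunits differed. POLA1, the catalytic subunit, fell by 0.49 ± 0.11 in shControl (adjusted p = 0.00491) and by 0.61 ± 0.11 in shTRIM22 cells (adjusted p = 0.000542). PRIM1, the catalytic primase, was at 7.55, 7.96 and 6.86 CPM in shControl sham and 3.68, 4.23 and 3.84 in shControl irradiated. In shTRIM22 cells it was at 7.67, 8.39 and 7.03 CPM without and 4.55, 4.82 and 4.50 CPM after irradiation. The unirradiated groups lay over each other, both above the irradiated ones. PRIM1 fell by 0.93 ± 0.14 (adjusted p = 0.000284) and 0.73 ± 0.14 (adjusted p = 0.00112), and differed by 0.05 ± 0.13 between the unirradiated hairpins (0.11 without replicate 3). It shares exon bases with NACA on the same strand, a gene with a mean count of 4891 per library against 97.5 for PRIM1, so its counts are uncertain.

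The regulatory subunit gene POLA2 and the large primase subunit gene PRIM2 showed the reverse. Neither passed the threshold on irradiation, with changes between -0.53 and 0.04, the first, of POLA2 in shTRIM22 cells, being -0.23 without replicate 3. Both were higher in unirradiated shTRIM22 cells, POLA2 by 1.09 ± 0.24 (adjusted p = 0.00116; 0.79 without replicate 3) and PRIM2 by 0.68 ± 0.17 (adjusted p = 0.00346; 0.74 without it), and POLA1 was higher by 0.40 ± 0.11 (0.35 without it). POLA2 was low in level, from 2.45 to 9.61 CPM over the libraries, and shares 2012 exon bases with AP000944.2 on the same strand. After irradiation PRIM2 was 0.50 ± 0.18 higher in shTRIM22 cells (adjusted p = 0.0368, held in 13 of 19 alternatives). It was lost with no filter, under DESeq2, and without shControl irradiated replicate 1 or 2 or shTRIM22 irradiated replicate 1 or 3 (0.36 to 0.51).

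Polymerase epsilon copies the leading strand. POLE, its catalytic subunit, was at 55.0, 50.6 and 49.2 CPM in shControl sham, 32.8, 34.8 and 27.3 in shControl irradiated, 65.4, 75.99 and 89.2 in shTRIM22 sham and 34.6, 40.0 and 37.6 in shTRIM22 irradiated. Irradiated libraries of both populations lay below all unirradiated ones. POLE fell by 0.71 ± 0.11 (adjusted p = 0.000332) and 1.04 ± 0.11 (adjusted p = 6.88e-06), and was 0.57 ± 0.11 higher in unirradiated shTRIM22 cells (0.45 without replicate 3). POLE2, its second subunit, fell by 0.93 ± 0.23 in shControl (adjusted p = 0.00832) and by 0.71 ± 0.21 in shTRIM22 cells (adjusted p = 0.0181). The first was lost without shControl sham replicate 3 (-0.77) and the second without shTRIM22 sham replicate 1 or shTRIM22 irradiated replicate 1 (both -0.56) or 2 (-0.69), or when the compared groups alone were fitted (-0.71).

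Polymerase delta, which works on the lagging strand, changed less. POLD2, an accessory subunit and the member with the second highest level in shControl sham at 25.0 ± 2.03 CPM per kb, fell by 0.42 ± 0.08 in shTRIM22 cells (adjusted p = 0.00076), with a change of -0.20 ± 0.08 in shControl cells (adjusted p = 0.0887). POLD1, the catalytic subunit, fell by 0.72 ± 0.13 in shTRIM22 cells (adjusted p = 0.000802; -0.49 without replicate 3), with -0.19 ± 0.13 in shControl cells. Both were higher in unirradiated shTRIM22 cells, by 0.41 ± 0.08 and 0.66 ± 0.13 (0.35 and 0.44 without replicate 3). POLD3, the subunit known also from break-induced replication, went the other way between the hairpins. It was at 17.4, 18.5 and 16.7 CPM in shControl sham, 10.9, 11 and 12.8 in shControl irradiated, 14.8, 14.3 and 13.9 in shTRIM22 sham and 12.9, 12.8 and 10.4 in shTRIM22 irradiated. The unirradiated groups did not overlap and the irradiated ones did. POLD3 was lower in unirradiated shTRIM22 cells by -0.28 ± 0.11 (adjusted p = 0.0438), a call that held in 6 of 19 alternatives and was lost without any one of the 6 unirradiated libraries (-0.24 to -0.32). It was lost as well without shControl irradiated or shTRIM22 irradiated replicate 1 or 2, with the same -0.28, with no filter, under DESeq2 and with the replicate number as a block. POLD3 fell by 0.59 ± 0.11 in irradiated shControl cells (adjusted p = 0.00152), with -0.26 ± 0.11 in shTRIM22 cells.

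PCNA, the sliding clamp that holds the polymerases on DNA and is also used by repair, stood apart from the other members in level and in direction. It made up 24.0% of the summed CPM of the 46 members in shControl sham, 35.7% in shControl irradiated, 18.9% in shTRIM22 sham and 25.9% in shTRIM22 irradiated. Per kilobase it was at 252 ± 0.290 CPM in shControl sham, where POLD2, the next, was at 25.0 ± 2.03. PCNA was measured at 371, 370 and 370 CPM in shControl sham, 489, 483 and 536 in shControl irradiated, 385, 354 and 438 in shTRIM22 sham and 370, 372 and 333 in shTRIM22 irradiated. The shControl irradiated libraries lay above all others, and the remaining groups overlapped. PCNA rose by 0.44 ± 0.07 with irradiation in shControl cells (adjusted p = 0.000525), in 3 of 3 libraries. In shTRIM22 cells its change was -0.13 ± 0.07 (adjusted p = 0.199; -0.05 without replicate 3). It differed by 0.08 ± 0.07 between the unirradiated hairpins (-0.00 without replicate 3) and was lower in shTRIM22 cells after irradiation by -0.49 ± 0.07 (adjusted p = 7.24e-05). PCNA lies on chromosome 20, 5114953 to 5126626, minus strand, and its 3 annotated pseudogenes together held a mean of 0.833 counts per library.

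The clamp loader, replication factor C, opens the PCNA ring. RFC1, the large subunit, did not pass the threshold on irradiation, with -0.02 ± 0.08 in shControl and -0.19 ± 0.08 in shTRIM22 cells, the latter passing without replicate 3 (-0.21). It was higher in shTRIM22 cells by 0.43 ± 0.08 without irradiation (adjusted p = 0.000228; 0.45 without replicate 3) and by 0.26 ± 0.08 after it (adjusted p = 0.0149). Of the small subunits, RFC4 and RFC5 fell in both populations, RFC4 by 0.75 ± 0.17 and 0.93 ± 0.16 (-0.69 for the latter without replicate 3) and RFC5 by 0.63 ± 0.12 and 0.54 ± 0.12. RFC4 was at 21.0, 15.7 and 16.7 CPM in shControl sham, 10.2, 10.3 and 11.1 in shControl irradiated, 23.5, 22.0 and 35.2 in shTRIM22 sham and 13.4, 14.9 and 14.0 in shTRIM22 irradiated. Its highest value was that of shTRIM22 sham replicate 3, and its rise between the unirradiated hairpins was 0.60 ± 0.15, or 0.36 without that library. RFC3 fell by 0.73 ± 0.11 in shTRIM22 cells (adjusted p = 0.000115), and by 0.33 ± 0.11 in shControl cells with an adjusted p of 0.0457 that held in 10 of 19 alternatives. That call was lost with no filter, and without shControl sham replicate 1 or 2, shControl irradiated replicate 1 or 3, shTRIM22 sham replicate 1 or any shTRIM22 irradiated library (-0.23 to -0.34). RFC2 fell by 0.45 ± 0.12 in shTRIM22 cells, a call lost without shTRIM22 irradiated replicate 3 (-0.35), and was 0.56 ± 0.12 higher in unirradiated shTRIM22 cells (0.57 without replicate 3). After irradiation RFC5 was 0.37 ± 0.13 higher in shTRIM22 cells (adjusted p = 0.0302), lost with no filter and without shControl irradiated replicate 3 or shTRIM22 irradiated replicate 1 or 3 (0.28 to 0.39). The call of RFC1 after irradiation was lost without shControl irradiated replicate 1 or 2 (0.20 and 0.25).

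FEN1, which cuts the flap of Okazaki fragments, and LIG1, the ligase that seals them, passed the threshold on irradiation in shTRIM22 cells and not in shControl cells, where FEN1 passed once shTRIM22 sham replicate 3 was left out. FEN1 was at 42.8, 42.3 and 66.8 CPM in shTRIM22 sham and 29.1, 31.3 and 34.8 in shTRIM22 irradiated, a change of -0.67 ± 0.15 (adjusted p = 0.00365) that was -0.42 without replicate 3. LIG1 was at 49.9, 43.1 and 82.0 CPM in shTRIM22 sham and 36.9, 36.1 and 33.4 in shTRIM22 irradiated, a change of -0.72 ± 0.18 (adjusted p = 0.0122) that was -0.39 without replicate 3. For both genes the third sham library lay far above its group, and the call held without it, while that of LIG1 was lost without shTRIM22 irradiated replicate 3 (-0.66). In shControl cells FEN1 changed by -0.22 ± 0.15 and LIG1 by -0.03 ± 0.18. FEN1 was 0.67 ± 0.15 higher in unirradiated shTRIM22 cells (0.42 without replicate 3), where LIG1 differed by 0.41 ± 0.18 with overlapping groups (0.09 without it). FEN1 shares exon bases with TMEM258, a gene of higher count on the opposite strand, and with FADS2.

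Replication protein A coats single-stranded DNA at the fork. RPA2, its middle subunit and the one that checkpoint kinases are known to phosphorylate, had the largest rise of the members with the hairpin before irradiation, and GINS2 had it after irradiation. It was at 19.2, 18.7 and 18.9 CPM in shControl sham, 19.7, 18.6 and 16.9 in shControl irradiated, 50.01, 47.2 and 45.99 in shTRIM22 sham and 32.3, 37.7 and 37.4 in shTRIM22 irradiated. All 6 shTRIM22 libraries lay above all 6 shControl libraries, and replicate 3 of shTRIM22 sham was the lowest of its group. RPA2 was higher in shTRIM22 cells by 1.33 ± 0.09 without irradiation (adjusted p = 4.21e-09; 1.36 without replicate 3) and by 0.97 ± 0.09 after it (adjusted p = 3.64e-07). It fell by 0.42 ± 0.08 on irradiation in shTRIM22 cells (adjusted p = 0.00181), and its change in shControl cells was -0.05 ± 0.09. RPA2 lies on chromosome 1, 27891524 to 27914746, minus strand, and its 3 annotated pseudogenes held 0 counts.

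RPA1, the large DNA-binding subunit, and RPA3, the small one, did not share that pattern. RPA1 was 0.26 ± 0.08 higher in unirradiated shTRIM22 cells (adjusted p = 0.0156; 0.16 without replicate 3) and differed by -0.05 ± 0.08 after irradiation. Its means were 78.8, 80.0, 94.4 and 77.4 CPM in the 4 groups. RPA3 was 0.72 ± 0.15 higher without irradiation (adjusted p = 0.000723; 0.50 without replicate 3), and differed by 0.41 ± 0.16 after it (adjusted p = 0.0542). On irradiation RPA1 fell by 0.29 ± 0.08 and RPA3 by 0.84 ± 0.15 in shTRIM22 cells (-0.18 and -0.62 without replicate 3), and in shControl cells RPA3 fell by 0.53 ± 0.16 (adjusted p = 0.0251) and RPA1 changed by 0.02 ± 0.08. The calls of RPA1 were lost without shControl sham replicate 3 (0.22 between the unirradiated hairpins) and without shTRIM22 irradiated replicate 3 (-0.23 on irradiation), and both when the compared groups alone were fitted (0.25 and -0.28). That of RPA3 in shControl cells was lost without shControl sham replicate 2 or 3 or shControl irradiated replicate 1 or 3 (-0.44 to -0.57). Per kilobase, RPA1 stood at 14.3 ± 0.707, RPA2 at 9.38 ± 0.140 and RPA3 at 4.09 ± 0.231 CPM in shControl sham. In shTRIM22 sham they stood at 17.2 ± 2.33, 23.6 ± 1.02 and 6.74 ± 1.67 CPM per kb, so RPA2 was then the highest of the 3.

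Both genes of the chromatin assembly factor fell in both populations. CHAF1A, its large subunit, was at 14.9, 15.7 and 14.1 CPM in shControl sham, 6.65, 9.57 and 6.504 in shControl irradiated, 17.9, 17.8 and 26.3 in shTRIM22 sham and 6.76, 7.59 and 9.72 in shTRIM22 irradiated. The irradiated groups overlapped and lay below every unirradiated library. CHAF1A fell by 0.97 ± 0.19 (adjusted p = 0.00159) and 1.36 ± 0.18 (adjusted p = 5.7e-05), and CHAF1B, the second subunit, changed by -0.66 ± 0.16 (adjusted p = 0.00656) and -0.997 ± 0.15 (adjusted p = 0.00017). Between the unirradiated hairpins CHAF1A was 0.47 ± 0.17 higher (adjusted p = 0.0311), a call lost without replicate 3 (0.27) or any of the shControl sham libraries (0.43 to 0.51), or when the compared groups alone were fitted (0.46). CHAF1B differed by 0.35 ± 0.15 (adjusted p = 0.0555; 0.21 without replicate 3). After irradiation the pair differed by 0.08 ± 0.20 and 0.02 ± 0.16.

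Whether irradiation acted differently in the 2 populations was tested as an interaction, the change in shTRIM22 cells minus that in shControl cells. Of the 46 members 3 passed, all negative: MCM4 (-0.62 ± 0.11, adjusted p = 0.0078), PCNA (-0.57 ± 0.10, adjusted p = 0.00968) and CDT1 (-0.97 ± 0.22, adjusted p = 0.0408). Of all genes 1.09% were lower and 0.521% higher in this test. The values of GINS4 (-0.85) and LIG1 (-0.69) were larger in size than those of MCM4 and PCNA and did not pass with all libraries. The 3 calls differ in kind. MCM4 fell in shTRIM22 cells from a raised level to near that of unirradiated shControl cells (means 66.8 and 68.4 CPM). Its irradiated shTRIM22 values all lay above those of irradiated shControl cells. PCNA rose in shControl cells and passed no threshold in shTRIM22 cells, and CDT1 fell in both and further in shTRIM22 cells. The call of MCM4 held in 18 of 18 alternatives, that of PCNA in 17 and that of CDT1 in 8. PCNA lost it without shTRIM22 irradiated replicate 3 (-0.50). CDT1 lost it with the non-mitochondrial total as scaling, with the replicate number as a block, and without any shControl sham library, shTRIM22 sham replicate 1, or replicate 1 or 2 of either irradiated group (-0.81 to -1.01). The interaction was negative for 35 of the 46 members and for 52.3% of all genes, with medians of -0.28 and -0.02. Without shTRIM22 sham replicate 3 it was negative for 33 members, with a median of -0.19.

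Without shTRIM22 sham replicate 3 the interaction of MCM4 was -0.55, that of PCNA -0.49 and that of CDT1 -0.86. Then 7 members passed, and 10 without shTRIM22 sham replicate 2, where 3.50% of all genes were lower and 1.72% higher. The 7 were MCM4, PCNA and CDT1 with GINS1 (-0.53), MCM7 (-0.40), LIG1 (-0.37) and RPA2 (-0.39), against 4.32% of all genes lower and 2.45% higher without replicate 3. By complex, all 6 interactions of the MCM ring were negative, with a median of -0.54, and 2 of 6 were negative in the origin recognition complex, with a median of 0.07. Without replicate 3 the medians were -0.37 and 0.01, with 6 and 3 negative. The interaction of ORC3 was 0.56 ± 0.22 (adjusted p = 0.197; 0.36 without replicate 3).

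**Figure D4:**
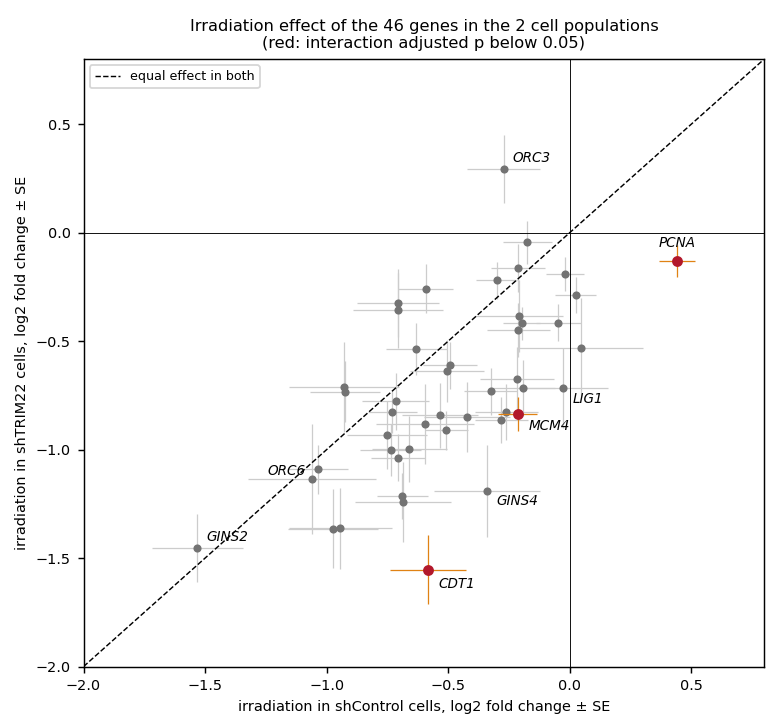
Irradiation effect of each of the 46 genes in shTRIM22 cells (vertical axis) against that in shControl cells (horizontal axis), log2 fold change ± standard error, with the dashed line where both are equal; genes in red passed the interaction test. MCM4, PCNA and CDT1 lie well below the line, as do GINS4 and LIG1, which did not pass. GINS2 and ORC6, members with large falls in shControl cells, lie close to it.

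Other genes of the pathway, 38 further replication genes, were counted in the same way, 37 of which passed the filter (RNASEH2A did not). Of these, 15 were lower and 0 higher after irradiation in shControl cells, 24 lower and 0 higher in shTRIM22 cells, 17 higher and 3 lower between the unirradiated hairpins and 7 higher and 4 lower after irradiation, with 0 interactions past the threshold by edgeR (5 lower without replicate 3). The shares of all genes lower and higher on irradiation were 7.53% and 10.6% in shControl and 14.0% and 13.5% in shTRIM22 cells, and those higher and lower between the hairpins 25.4% and 22.1% without and 17.6% and 18.0% after irradiation. Without shTRIM22 sham replicate 3 the counts were 24 lower and 2 higher, 23 lower and 0 higher, 16 higher and 3 lower, and 10 higher and 6 lower. With all libraries the medians of the 37 genes were -0.33, -0.52, 0.26 and 0.08. In shControl cells SSRP1, a histone chaperone subunit, fell by 0.55 ± 0.07, the topoisomerase gene TOP2A by 1.12 ± 0.14, MMS22L, of fork recovery, by 0.80 ± 0.13, and DBF4B, a second activator of CDC7, by 0.92 ± 0.15. In shTRIM22 cells TIMELESS, of the fork protection complex, fell by 0.91 ± 0.09, TOP2A by 1.56 ± 0.15, TICRR, needed for origin firing, by 1.55 ± 0.19, and ATAD5, which unloads PCNA, by 1.11 ± 0.14.

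Between the unirradiated hairpins TIMELESS was 0.83 ± 0.09 higher, WDHD1, which ties the primase to the helicase, 1.10 ± 0.13, TOP1 0.48 ± 0.06 and CLSPN, the checkpoint mediator claspin, 1.36 ± 0.19 higher (0.72, 1.07, 0.50 and 1.26 without replicate 3). After irradiation TOP1 was 0.37 ± 0.06, TIPIN, the partner of TIMELESS, 0.79 ± 0.14 and WDHD1 0.74 ± 0.14 higher, and RBBP4, the small subunit of the chromatin assembly factor, was lower by -0.33 ± 0.06. RBBP4 was also lower without irradiation, by -0.26 ± 0.06, and its irradiation changes, 0.04 ± 0.06 and -0.03 ± 0.06 (-0.05 without replicate 3), passed no threshold, beside the falls of CHAF1A and CHAF1B. RBBP4 is known to sit in several other chromatin complexes.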

How the data were processed

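The authors deposited a table of raw counts per gene for 12 poly(A)-selected libraries, with gene coordinates and lengths; DESeq2 1.20.0 and the build hg38 appear in the submitters' processing notes, with no step attached. Aligner, counter and strandedness were not given in the sources used here. All 58735 gene identifiers and coordinates equal those of GENCODE 29. From the counts, edgeR 4.0.16 (R 4.3.3) was run on all 12 libraries with 1 mean per group: filterByExpr with a minimum count of 10 (17094 genes), TMM scaling, robust quasi-likelihood tests and Benjamini-Hochberg adjustment over all genes, at 0.05. CPM are TMM-scaled, and per-kilobase values use the deposited gene length, which equals the merged exons of all 46 members. The lowest count of any member in any library was 26, for GINS2. Of the 46 members 20 share exon bases with another gene, so that reads of the pair could not be told apart without knowing the strand. Fold changes with errors were printed for called members by a rule on p-value rank within each complex, with values of the remaining members as description. The members and lists were chosen with earlier results of these data known. Alternatives (other scaling, no filter, DESeq2 1.42.0, compared groups only, replicate block, no robust step, each library left out) are given in the closing section.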

Additional observations from a re-analysis of the deposited data

Results flagged for a closer look

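The irradiation effect differed between shTRIM22 and shControl cells, by a test of the difference itself, for 3 members. The difference (shTRIM22 minus shControl, log2) was -0.97 for CDT1, -0.62 for MCM4 and -0.57 for PCNA. In this test 1.09% of all genes were lower and 0.521% higher. CDT1 lost its call under most of the alternatives and PCNA without shTRIM22 irradiated replicate 3, while MCM4 kept it. Each group held 3 libraries, so single libraries were not examined for distance from their group by a formal test.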

How the results depend on the processing

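No call changed direction under any alternative: of 2201 values of the 116 gene results, 2094 kept their side of the threshold and 107 lost it, and 87 of the results were called under all alternatives. With the replicate number as a block, 27, 35, 33 and 17 members were called in the 4 comparisons and 2 in the interaction. Of the 17094 genes 3114, 4735, 8110 and 6114 were then called, and 229 in the interaction. CDT1 lost its call in the interaction, as POLD3 did between the unirradiated hairpins. In their deviations from the group means, same-numbered libraries correlated between -0.0545 and 0.0942 over 18 pairs. The main fit used no pairing, and with 3 libraries per group this check cannot exclude it. Fitting the compared groups alone gave 5224 genes for irradiation in shControl cells and 2912 for irradiation in shTRIM22 cells. Between the irradiated hairpins it gave 28 members and 7967 of 16084 genes, where the main fit gave 17 members and 6092 of 17094 genes. In the interaction 9 members and 754 genes were called with no filter, and 5 and 564 by DESeq2. Leaving out each library in turn gave 20 to 36, 33 to 38, 28 to 35, 11 to 28 and 2 to 10 members, and 2135 to 5260, 3356 to 5389, 7047 to 8692, 5009 to 7943 and 111 to 1185 genes, the highest count of genes in every comparison being without shTRIM22 sham replicate 3. All 4 groups enter the interaction, so a fit of the compared groups alone gives no value for it. Depth limits members such as GINS2, CDC45 and POLE2, with under 40 counts in their lowest library. Scaling by the non-mitochondrial total moved the share of higher calls among all genes from 58.6% to 44.2% for irradiation in shControl cells and from 32.2% to 61.9% in the interaction. It gave 1 and 30 members higher and lower in the first, beside 1431 and 1804 of all genes. In the interaction it gave 0 and 2 members, beside 200 and 123 genes. Between the irradiated hairpins it gave 23 and 2 members and 3583 and 2710 genes, where the main fit gave 15 and 2 members and 3015 and 3077 genes.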
